A study of Homo sapiens with 6 samples.

Results

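The kallikrein-related peptidases are secreted trypsin-like or chymotrypsin-like serine proteases whose genes lie side by side on chromosome 19. Described here are 10 of them, KLK1 and KLK5 to KLK13, taken by name from the 58884 gene identifiers of the count table. RNA came from the cell line SW480, a long-established line from a human colon carcinoma, grown as liver metastases after injection into the portal circulation of NSG mice, an immunodeficient strain that lacks its own lymphocytes but keeps macrophages and granulocytes. There were 3 libraries with a guide RNA against ITPR3 (sgITPR3), whose loss had been checked on Western blots, and 3 with a control guide (sgCtrl), and both groups passed through the same mouse host, collagenase digestion, red cell lysis, density gradient and depletion of mouse cells. Tags were sequenced from the 3' ends of polyadenylated transcripts. The labels name neither separate animals for the libraries nor clones for the edited lines, so the p-values here cover no more than the spread among the libraries at hand, which may be technical. In tissue taken as a whole, fewer cells that express a gene and less RNA per cell cannot be told apart.

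Kallikreins are made as inactive precursors, are cut to their active form by other proteases or by each other, and are held in check by serpins and by inhibitors of the SPINK family. KLK1 is the tissue kallikrein that frees kinins from kininogen, while the others cut adhesion molecules, matrix proteins and receptors of the protease-activated family. They are best known from skin, where KLK5, KLK7 and their relatives take apart the junctions of the outer layer, and several of them, KLK6, KLK7 and KLK10 among them, are raised in carcinomas of the colon.

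The cluster of the 10 genes spans 246 kb of GRCh38 (chromosome 19, 50819148 to 51065114), and all 10 genes lie on the minus strand. KLK6 (50958631 to 50969673), KLK7 (50976482 to 50984099) and KLK10 (51012739 to 51020175) lie towards the end of the cluster with the higher coordinates, and KLK1 (50819148 to 50823787) lies at the end with the lowest. RefSeq promoter windows, 250 bases before to 50 after a transcript start, were at hand for 8 of the 10 genes in 13 windows. There was none for KLK1 or KLK8, which the motif counts therefore leave out. The first listed windows of the 3 genes with the largest changes are shown, with matches of the motifs searched in capitals (GRCh38.p14, minus strand, for KLK6 chr19:50969542-50969841, for KLK7 chr19:50983868-50984167 and for KLK10 chr19:51019812-51020111).
KLK6: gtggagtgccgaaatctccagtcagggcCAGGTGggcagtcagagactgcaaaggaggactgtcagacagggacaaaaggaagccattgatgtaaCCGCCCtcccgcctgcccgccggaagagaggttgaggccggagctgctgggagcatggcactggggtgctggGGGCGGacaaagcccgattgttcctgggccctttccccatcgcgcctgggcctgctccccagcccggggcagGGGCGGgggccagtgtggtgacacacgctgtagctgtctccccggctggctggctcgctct
KLK7: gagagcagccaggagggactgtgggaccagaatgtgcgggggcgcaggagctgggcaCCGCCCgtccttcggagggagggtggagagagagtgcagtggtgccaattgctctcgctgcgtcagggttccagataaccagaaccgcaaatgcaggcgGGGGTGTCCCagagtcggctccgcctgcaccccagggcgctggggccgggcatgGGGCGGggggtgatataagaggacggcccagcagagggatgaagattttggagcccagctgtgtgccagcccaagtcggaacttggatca
KLK10: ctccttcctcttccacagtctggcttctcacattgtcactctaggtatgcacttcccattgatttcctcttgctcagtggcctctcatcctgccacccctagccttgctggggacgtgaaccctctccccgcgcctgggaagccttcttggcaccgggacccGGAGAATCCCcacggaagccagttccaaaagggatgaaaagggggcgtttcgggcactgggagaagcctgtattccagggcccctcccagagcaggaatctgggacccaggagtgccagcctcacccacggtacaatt
Both strands were searched for the TATA box letters TATAAA, the GC box letters GGGCGG, the AP-1 element TGANTCA, the E-box CACCTG and the kappa B consensus, and matches may overlap. The KLK6 window held 3 copies of GGGCGG and 1 of CACCTG, and the KLK7 window 2 copies of GGGCGG and 1 kappa B consensus match. The KLK10 window held a single kappa B consensus match at position -88 and no GGGCGG. Over the 13 kallikrein windows, 8 held GGGCGG, 6 CACCTG, 5 a kappa B consensus match, 0 TATAAA and 0 TGANTCA. Windows of a gene can overlap and share a match, and by gene 5 of 8 held GGGCGG, 5 CACCTG and 3 a kappa B consensus match in some window. Of all 35116 RefSeq windows, 45.0% held GGGCGG, 20.6% CACCTG, 11.3% a kappa B consensus match, 11.5% TATAAA and 7.71% TGANTCA. These are matches of letters and no evidence of binding.

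The libraries held 19140055 to 23943797 counts, and a single count was worth 0.0405 to 0.0538 CPM (counts per 1000000 of the scaled library). ITPR3, the targeted gene, was at 39.4, 41.0 and 46.2 CPM in the sgITPR3 libraries and at 108, 93.9 and 94.2 CPM in the sgCtrl libraries, which follows the labels, although a 3' tag need not lie in the edited part. The epithelial markers of the cell line were present, with KRT18 at 1089 ± 39.2 CPM in sgITPR3 and 1255 ± 100.2 CPM in sgCtrl (SD, n = 3 each) and EPCAM at 307 ± 37.4 CPM in sgITPR3 and 382 ± 39.3 CPM in sgCtrl, whereas CDX1, CDH17 and KRT20 had 0 to 9 counts. The 12 epithelial markers summed to 2125 to 2177 CPM in sgITPR3 and 2512 to 2907 CPM in sgCtrl. Of the 8 tested, 2 were higher, VIL1 (36.7 ± 1.19 CPM in sgITPR3 and 3.18 ± 0.821 CPM in sgCtrl) and CDX2. The 3 lower ones were KRT19 (303 ± 13.6 and 535 ± 68.3 CPM), KRT8 and EPCAM. For these and the markers below, 23.5% of all genes tested were called higher or lower (edgeR adjusted p under 0.05). Counts also fell on genes that mark liver cells, and whether they came from the mouse host or from the SW480 cells was not tested. The 16 hepatocyte markers summed to 173 to 333 CPM in sgITPR3 and 71.2 to 275 CPM in sgCtrl, and 2 of 11 tested were higher and 1 lower. APOC3 was at 0 in all 6 libraries, and APOA2, APOH and HP had 0 to 7 counts per library. The 5 erythroid markers summed to 4.84 to 6.39 CPM in sgITPR3 and 0.587 to 1.34 CPM in sgCtrl (2 of 2 tested higher). Of these 2, HBA1 had 6, 3 and 1 counts in sgCtrl, and its sgITPR3 counts (21, 44 and 19) carried it past the low-count filter. HBB had 0 to 2 counts per library. The 7 fibroblast and stellate markers summed to 9.23 to 11.6 CPM in sgITPR3 and 7.15 to 7.42 CPM in sgCtrl (1 of 2 tested higher, LUM at 0). The 8 macrophage markers summed to 1.34 to 2.02 CPM in sgITPR3 and 1.82 to 2.26 CPM in sgCtrl (0 of 1 tested called, C1QA and C1QB at 0), and the 6 endothelial markers to 0.202 to 0.722 and 0.298 to 0.645 CPM (none high enough to test, CLEC4G at 0). The 6 lymphocyte markers summed to 117 to 150.1 CPM in sgITPR3 and 94.8 to 106 CPM in sgCtrl, nearly all of it CD3D (136 ± 17.8 and 98.5 ± 6.10 CPM, SD, n = 3 each), with 1 of 2 tested higher and MS4A1 and NKG7 at 0.

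Only 4 of the 10 kallikrein genes carried enough counts to be tested, namely KLK6, KLK7, KLK1 and KLK10, and each was high enough in both groups to pass the low-count filter. All 4 were lower in sgITPR3 metastases, by 1.43-fold for KLK1, 1.77-fold for KLK7, 2.50-fold for KLK6 and 3.79-fold for KLK10 (edgeR quasi-likelihood test, adjusted over all 15804 genes tested, threshold 0.05). Of all genes tested, 11.9% were called lower, 11.6% higher and 23.5% in either direction. The median log2 fold change (sgITPR3 over sgCtrl) of the 4 genes was -1.07, against 0.000859 over all genes tested. The members were chosen with earlier results of these data known, so these comparisons with all genes are descriptions and were not tested. In each of the 4, every sgITPR3 library lay below every sgCtrl library, as was the case for 19.7% of all genes tested, while the reverse order held for 19.6%.

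KLK6 encodes a trypsin-like kallikrein also called neurosin, which cuts matrix proteins and, in the nervous system, myelin proteins. It had the highest tag level of the 10, and tags from 3' ends are counted once per transcript, so that no division by length was made. It had 1792, 1687 and 1289 counts in the sgITPR3 libraries, against 3785, 3285 and 3075 in the sgCtrl libraries. These are 77.4, 68.3 and 66.4 CPM in sgITPR3, against 204, 163 and 164 CPM in sgCtrl. The lowest sgCtrl library was more than 85 CPM above the highest sgITPR3 library. The log2 fold change was -1.32 (SE 0.093, edgeR adjusted p = 1.74e-07). Of all genes tested, 91.7% had a lower mean level and 1.09% a lower log2 fold change.

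KLK10, first described as a gene lost from breast tumours (normal epithelial cell-specific 1), showed the largest change of the 4 from the lowest level. It had 126, 124 and 112 counts in the sgITPR3 libraries, against 383, 383 and 407 in the sgCtrl libraries. Its levels were 5.44, 5.02 and 5.77 CPM in sgITPR3, against 20.6, 19.04 and 21.7 CPM in sgCtrl. The libraries of each group lay close together, and the groups were far apart. The log2 fold change was -1.92 (SE 0.121, edgeR adjusted p = 5.76e-08), and 71 of the 15804 genes tested had a lower one. The depth was enough for this difference, since the exact Poisson 95% interval of the largest sgITPR3 count was 105 to 150.02 counts and that of the smallest sgCtrl count 346 to 423 counts, which covers counting error only.

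KLK7 encodes the chymotrypsin-like kallikrein of the outer skin, which cuts corneodesmosin and cadherins. It had 38.0, 38.4 and 49.95 CPM in the sgITPR3 libraries, against 70.9, 75.3 and 77.3 CPM in the sgCtrl libraries. Replicate 3 stood above the other sgITPR3 libraries but below all sgCtrl libraries. The log2 fold change was -0.83 (SE 0.097, edgeR adjusted p = 2.93e-05). KLK1, the kinin-releasing tissue kallikrein, had 17.7, 17.7 and 22.6 CPM in sgITPR3, against 30.5, 28.2 and 24.1 CPM in sgCtrl. Its groups came closest, with sgITPR3 replicate 3 and sgCtrl replicate 3 separated by less than the SD of either group (2.85 CPM in sgITPR3 and 3.25 CPM in sgCtrl). The log2 fold change was -0.52 (SE 0.118, edgeR adjusted p = 0.00591).

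**Figure D1:**
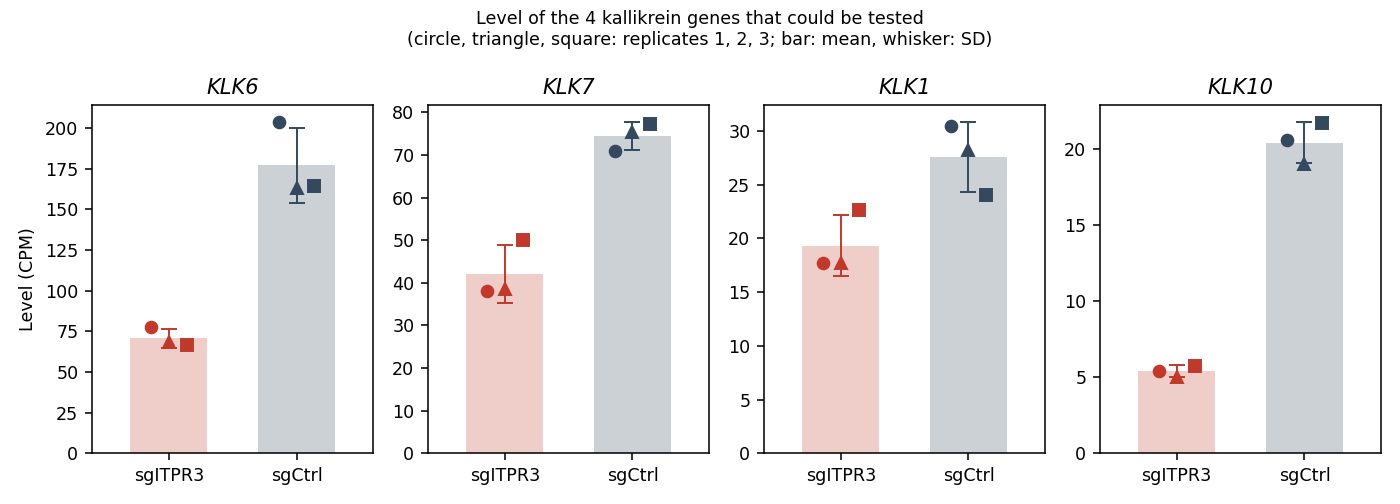
Levels of KLK6, KLK7, KLK1 and KLK10 in CPM (vertical axes, each from 0) in the 3 sgITPR3 and the 3 sgCtrl libraries, with symbols for replicates, bars for means and whiskers for SD. In each panel all sgITPR3 points lie below all sgCtrl points, with the widest gap as a ratio for KLK10 (5.02 to 5.77 against 19.04 to 21.7 CPM) and the narrowest ratio for KLK1 (17.7 to 22.6 against 24.1 to 30.5 CPM).

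The other 6 members were at or near the limit of detection and allow no statement on a change. KLK5, which starts the protease cascade of skin, and KLK9 had 0 counts in all 6 libraries, which for KLK5 allows up to 3 counts or 0.121 to 0.161 CPM per library. For KLK9 the count of 0 sets no such limit, since the 3' end of this gene lies in a read-through gene of the same strand and reads there may be assigned to neither. KLK8, a protease of skin and hippocampus, had 1 count, in sgCtrl replicate 1, and KLK12 had 1 count, in sgITPR3 replicate 2. The same read-through gene overlaps KLK8, so reads there may also be lost and the count of KLK8 sets no limit. KLK11 had 3, 6 and 3 counts in the sgITPR3 libraries and 12, 4 and 3 in the sgCtrl libraries. KLK13 had 0, 5 and 10 counts in sgITPR3 and 7, 10 and 2 in sgCtrl. The ranges of KLK11 and of KLK13 overlapped between groups. When the low-count filter was left out, which called 13.5% of 30264 genes in either direction, neither passed (edgeR adjusted p = 0.594 for KLK11 and 0.741 for KLK13). By position, KLK5 lies next to KLK6, and KLK8 and KLK9, whose levels the counts do not limit, lie between KLK7 and KLK10.

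All 10 members together summed to 139, 130 and 145 CPM in the sgITPR3 libraries and to 327, 287 and 288 CPM in the sgCtrl libraries. KLK6 made up 55.8%, 52.6% and 45.7% of these counts in sgITPR3 and 62.3%, 57.0% and 57.1% in sgCtrl. KLK7 made up 27.4%, 29.6% and 34.3% in sgITPR3 and 21.7%, 26.3% and 26.9% in sgCtrl. KLK1 held 12.8%, 13.6% and 15.6% in sgITPR3 and 9.33%, 9.84% and 8.38% in sgCtrl, and KLK10 held 3.92%, 3.86% and 3.97% in sgITPR3 and 6.31%, 6.64% and 7.56% in sgCtrl. KLK10 and KLK6 thus took smaller shares in every sgITPR3 library than in any sgCtrl library, and KLK7 and KLK1 larger ones. The margins were small for KLK7 and KLK6. For KLK7, sgITPR3 replicate 1 (Wilson 95% interval 25.9% to 28.998%) overlapped within counting error with sgCtrl replicate 2 (25.2% to 27.4%) and replicate 3 (25.7% to 28.1%). For KLK6, sgITPR3 replicate 1 (Wilson 95% interval 54.1% to 57.5%) overlapped within counting error with sgCtrl replicate 2 (55.7% to 58.3%) and replicate 3 (55.8% to 58.4%).

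**Figure D2:**
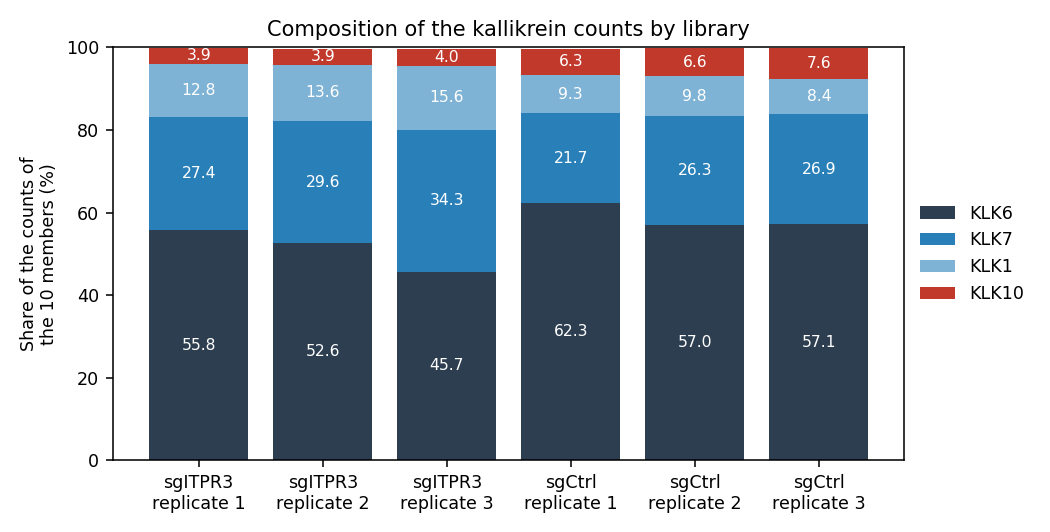
Share of each gene in the counts of the 10 members (vertical axis, %), for the 3 sgITPR3 and the 3 sgCtrl libraries. KLK10 holds 3.86% to 3.97% in sgITPR3 and 6.31% to 7.56% in sgCtrl, while KLK1 holds 12.8% to 15.6% in sgITPR3 and 8.38% to 9.84% in sgCtrl.

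Whether the 4 genes changed by unequal amounts was tested on the ratios of their counts within each library, which need no scaling. For KLK10 over KLK1 the ratio was 0.307, 0.284 and 0.255 in sgITPR3, against 0.675, 0.675 and 0.902 in sgCtrl, a difference of -1.40 in log2 ratio. For KLK10 over KLK6 it was 0.0703, 0.0735 and 0.0869 in sgITPR3, against 0.101, 0.117 and 0.132 in sgCtrl, a difference of -0.60. For KLK6 over KLK7 it was 2.03, 1.78 and 1.33 in sgITPR3, against 2.87, 2.17 and 2.13 in sgCtrl, a difference of -0.49. The remaining differences in log2 ratio were -1.09 for KLK10 over KLK7, -0.80 for KLK6 over KLK1 and -0.32 for KLK7 over KLK1. The groups did not overlap in any of the 6 ratios, which come from 4 genes and are not independent of each other. How often ratios of other gene pairs fail to overlap was not examined, so this count is a description only. Each ratio gave the smallest value that a two-sided exact permutation test with 3 libraries a group can give (p = 0.1, also after adjustment over the 6 pairs). This test could therefore not pass the threshold whatever the size of the difference.

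Counts of close relatives and of overlapping genes were examined because the sources used here do not give the strand setting of the counting. Among stretches of 50 bases in the last 500 bases of coding transcripts (GENCODE release 29), none of those of KLK1, KLK6 or KLK10 occurred in a transcript of another gene, and 14 of 1653 did for KLK7 (0.847%). For KLK9 all, and for KLK8 51.0%, were shared with the read-through gene AC011473.4, which had 0 counts. Of the genes that overlap KLK6, AC011483.3 on the same strand had 0 to 6 counts per library and the antisense genes AC011483.1 and AC011483.2 had 0 to 1 and 0 counts. AC011483.1 also overlaps KLK7, and AC011473.2, antisense within KLK10, had 0 counts.

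The remaining kallikrein genes of the cluster and plasma kallikrein (KLKB1, on another chromosome) were low, and 1 of the 3 that could be tested moved the other way. KLK3, which encodes the prostate-specific antigen, had 53, 89 and 85 counts in sgITPR3 libraries, against 36, 36 and 27 in sgCtrl libraries, or 3.42 ± 1.06 and 1.72 ± 0.254 CPM (SD, n = 3 each). It was called higher (log2 fold change 0.98, SE 0.279, edgeR adjusted p = 0.0198), but the call ended without sgITPR3 replicate 2 (0.0731), without sgITPR3 replicate 3 (0.0962) and without sgCtrl replicate 3 (0.0712). KLK4, a protease of tooth enamel and prostate, did not pass (log2 fold change -0.76, edgeR adjusted p = 0.183), nor did the pseudogene KLKP1 (-0.35, edgeR adjusted p = 0.517). KLK2, KLK14, KLK15 and KLKB1 had 0 to 7 counts per library and were not tested.

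Over the chromosome, the genes around the members were called about as often as genes elsewhere. Of 94 genes within 500 kb of the cluster's ends, the members left out, 23 were tested, 2 were called higher and 3 lower, which is 21.7% against 23.5% of all genes tested. Besides KLK3, MYBPC2, encoding a fast muscle myosin-binding protein, was higher (2.596 ± 0.434 CPM in sgITPR3 and 1.07 ± 0.189 CPM in sgCtrl, SD, n = 3 each). SIGLEC6, encoding a sialic acid-binding lectin, was lower (10.3 ± 1.11 CPM in sgITPR3 and 23.3 ± 3.76 CPM in sgCtrl), and so were C19orf48P (58.6 ± 7.69 and 78.2 ± 6.31 CPM) and the deubiquitinase gene JOSD2 (10.4 ± 0.715 and 14.3 ± 1.81 CPM). The call of JOSD2 ended without sgITPR3 replicate 2 (edgeR adjusted p = 0.0748) and without sgCtrl replicate 1 (0.0704). The nearest tested genes on either side did not pass, with log2 fold changes of -0.19 for TMEM277P (edgeR adjusted p = 0.794), 0.268 kb from KLK1, and -0.38 for CTU1 (edgeR adjusted p = 0.138), 32.5 kb from KLK13. KLK6 and KLK10 had the lowest log2 fold changes of the tested genes of the window.

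**Figure D3:**
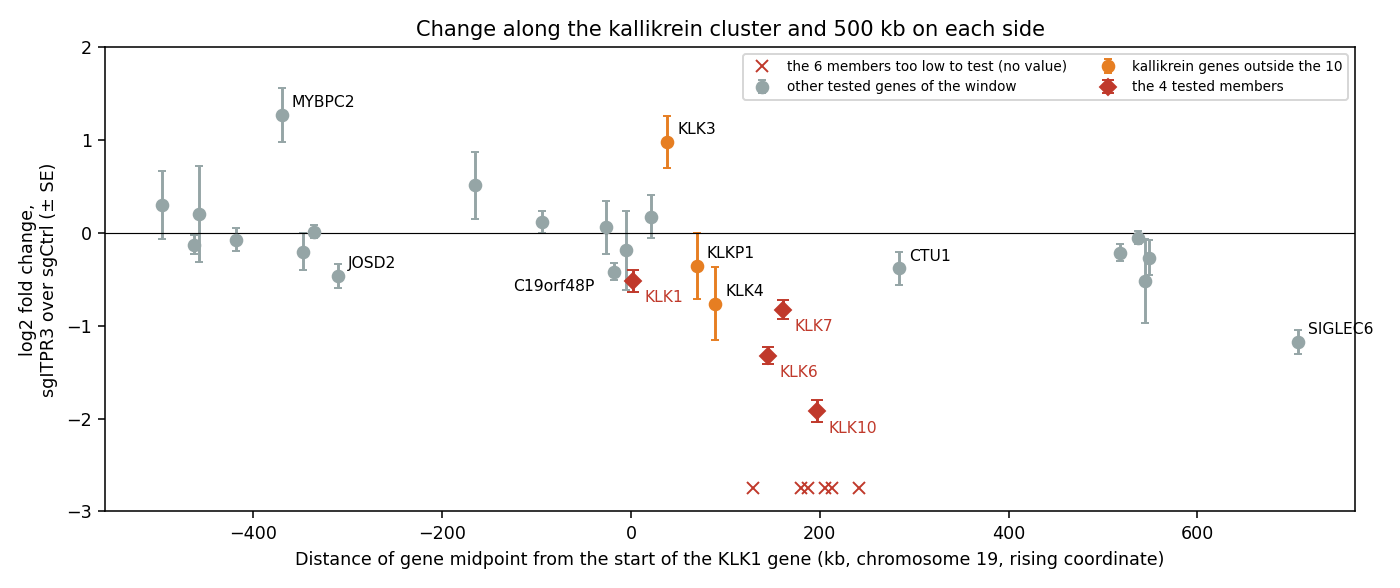
Log2 fold change of sgITPR3 over sgCtrl with its SE (vertical axis) for the tested genes of the cluster and 500 kb on each side, by distance in kb from the start of KLK1. The 4 tested members lie between -0.52 and -1.92, KLK3 lies at 0.98, and crosses mark the 6 members that could not be tested and carry no value.

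Regulators and targets of kallikreins went both ways. Of the 18 inhibitor genes listed, 7 were tested, 2 were called higher, 1 lower and 4 did not pass. Called were thus 42.9% of those tested, against 23.5% of all genes tested. The lists were chosen with earlier results of these data known, and such shares were not tested. SLPI, encoding an inhibitor of leukocyte proteases that also acts on some kallikreins, had 9.59, 8.70 and 10.1 CPM in sgITPR3, against 2.69, 3.38 and 1.01 CPM in sgCtrl (log2 fold change 1.99, SE 0.275, edgeR adjusted p = 1.22e-04). SERPINA5, the protein C inhibitor, which blocks several kallikreins, had 3.89, 4.53 and 3.51 CPM in sgITPR3, against 2.21, 1.79 and 1.49 CPM in sgCtrl (log2 fold change 1.12, SE 0.236, edgeR adjusted p = 0.00335). SERPINA1, encoding alpha-1-antitrypsin and counted also among the hepatocyte markers, was lower at 13.9 ± 2.17 CPM in sgITPR3 and 43.3 ± 3.86 CPM in sgCtrl (SD, n = 3 each). SPINK5, which encodes LEKTI, the main inhibitor of skin kallikreins, had 0 to 2 counts per library, and SPINK6 and SPINK9 had 0 in all.

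The receptor gene F2RL1, which encodes protease-activated receptor 2, a receptor that KLK6 and other trypsin-like kallikreins can cut and switch on, was lower in sgITPR3. It had 37, 34 and 15 counts in the sgITPR3 libraries, against 108, 87 and 113 in the sgCtrl libraries. This was 1.598, 1.38 and 0.773 CPM in sgITPR3, against 5.81, 4.33 and 6.03 CPM in sgCtrl (log2 fold change -2.08, SE 0.268, edgeR adjusted p = 6.41e-05). F2R, encoding the related thrombin receptor, overlapped between groups (0.500 ± 0.231 and 0.892 ± 0.584 CPM) and was the other tested gene of the 7 on that list. Called were thus 50% of those tested, against 23.5% of all genes tested. F2RL3, on the same list, went the other way at counts too low to test (7, 9 and 5 in sgITPR3, 0 in each sgCtrl library). The kininogen gene KNG1, whose product KLK1 cuts, and the kinin receptor genes BDKRB1 and BDKRB2 had 0 to 4 counts per library.

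Among 18 genes of other secreted or membrane-bound serine proteases and their SPINT inhibitors, 11 were tested, 5 were called lower and 2 higher. That is 63.6% of those tested, against 23.5% of all genes tested. Beside the plasminogen activator genes PLAT (log2 fold change -3.53) and PLAU (-2.69), the tryptase-like PRSS22 was lower (2.66 ± 0.881 CPM in sgITPR3 and 7.56 ± 0.616 CPM in sgCtrl, SD, n = 3 each), and PRSS23 was higher (110.1 ± 13.4 and 62.0 ± 4.18 CPM). Of 24 genes of substrates and barrier partners, 11 were tested, 4 were lower, 3 higher and 4 did not pass, so that 63.6% were called. Those with the smallest p were LAMB3 (-2.12) and PLAUR (-1.18), which were lower, and FN1 (0.85) and APP (0.49), which were higher, all as log2 fold changes. The skin partners of KLK5 and KLK7 were low or absent, with CDSN at 4 to 11 counts per library, DSG1 at 0 to 6 and DSC1 at 0 in all. DSC2, a desmosomal cadherin named after its values were seen, had 63, 62 and 32 counts in the sgITPR3 libraries, against 7, 8 and 3 in the sgCtrl libraries (log2 fold change 2.86, SE 0.405, edgeR adjusted p = 1.56e-04), and its sgITPR3 counts carried it past the low-count filter.

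**Figure D4:**
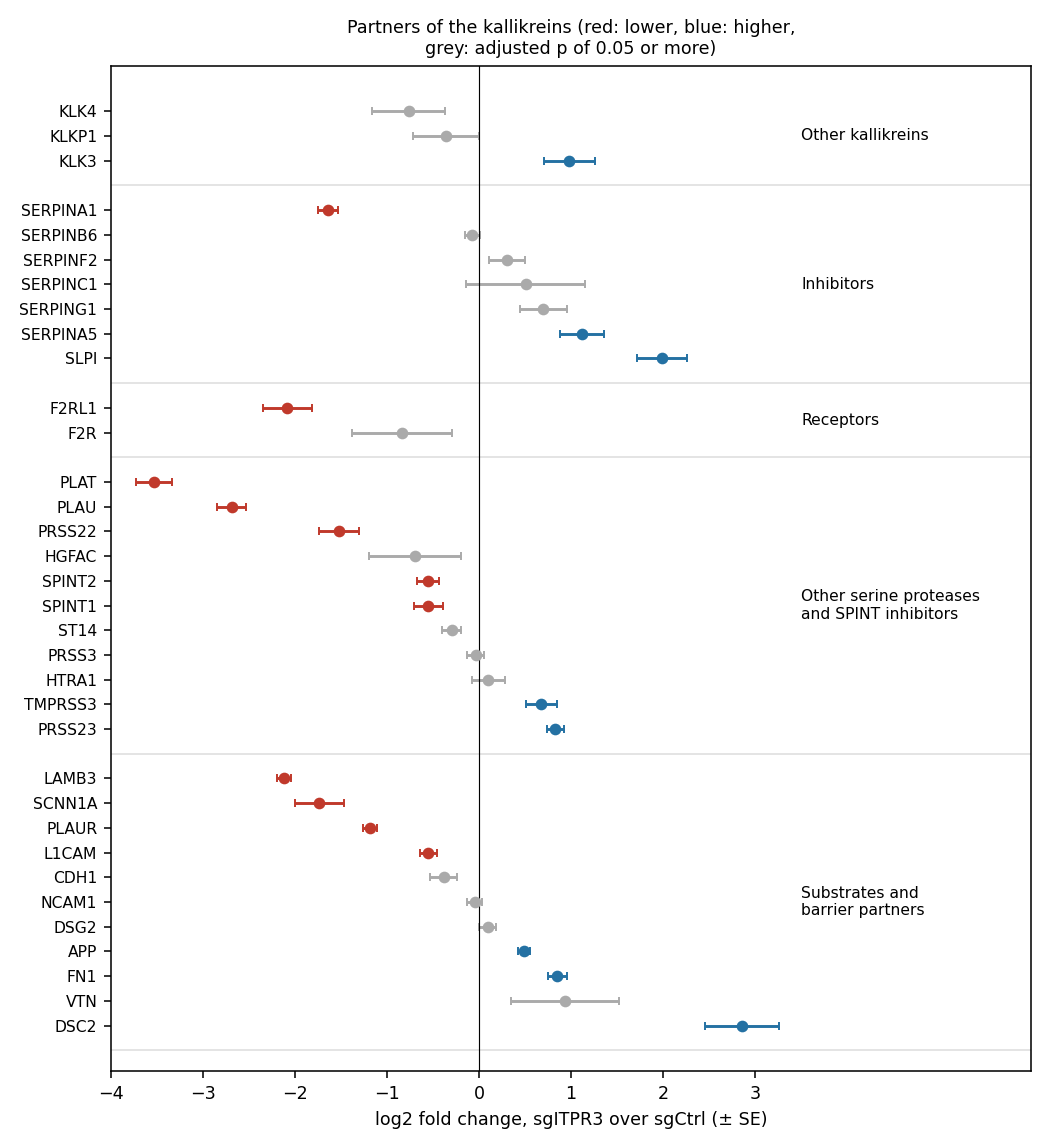
Log2 fold change of sgITPR3 over sgCtrl with its SE (horizontal axis) for the tested genes of each partner list, in red where called lower, in blue where called higher and in grey where not called. F2RL1 stands at -2.08, SLPI at 1.99 and KLK3 at 0.98.

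The genes whose log2 CPM over the 6 libraries ran closest to that of KLK6 were TBC1D22A-DT, VDR and APEX2, with Pearson r of 0.999, 0.998 and 0.998. The 6 libraries fall into their 2 groups in each case, so the likeness rests on the same difference between groups, and 582 genes had an r above 0.95. VDR, encoding the vitamin D receptor, had 138, 129 and 129 CPM in sgITPR3, against 231, 216 and 215 CPM in sgCtrl. Of the members, KLK10 was closest to KLK6 (r 0.980, with 137 other genes closer), then KLK7 (0.904) and KLK1 (0.856).

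The summed levels of the hepatocyte markers differed most among the sgCtrl libraries. In sgCtrl replicate 1, where the hepatocyte markers summed to 96.6 CPM, KLK6 was at 204 CPM, KLK7 at 70.9, KLK10 at 20.6 and KLK1 at 30.5. In sgCtrl replicate 2, where the hepatocyte markers summed to 275 CPM, KLK6 was at 163 CPM, KLK7 at 75.3, KLK10 at 19.04 and KLK1 at 28.2, while in sgCtrl replicate 3, with a sum of 71.2 CPM, they were at 164, 77.3, 21.7 and 24.1 CPM. In sgITPR3 replicates 1, 2 and 3 the hepatocyte markers summed to 333, 223 and 173 CPM. Beside these sums KLK7 was at 38.0, 38.4 and 49.95 CPM and KLK1 at 17.7, 17.7 and 22.6 CPM, both highest where the sum was lowest. KLK6 was at 77.4, 68.3 and 66.4 CPM and KLK10 at 5.44, 5.02 and 5.77 CPM. With the log2 level of ALB as a covariate, chosen after its values were seen, the log2 fold changes were -1.82 for KLK10, -1.30 for KLK6, -0.77 for KLK7 and -0.52 for KLK1, and all 4 calls held (largest edgeR adjusted p = 0.0282, for KLK1). The part of the hepatocyte, erythroid and fibroblast markers as sets in the differences was not tested.

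**Figure D5:**
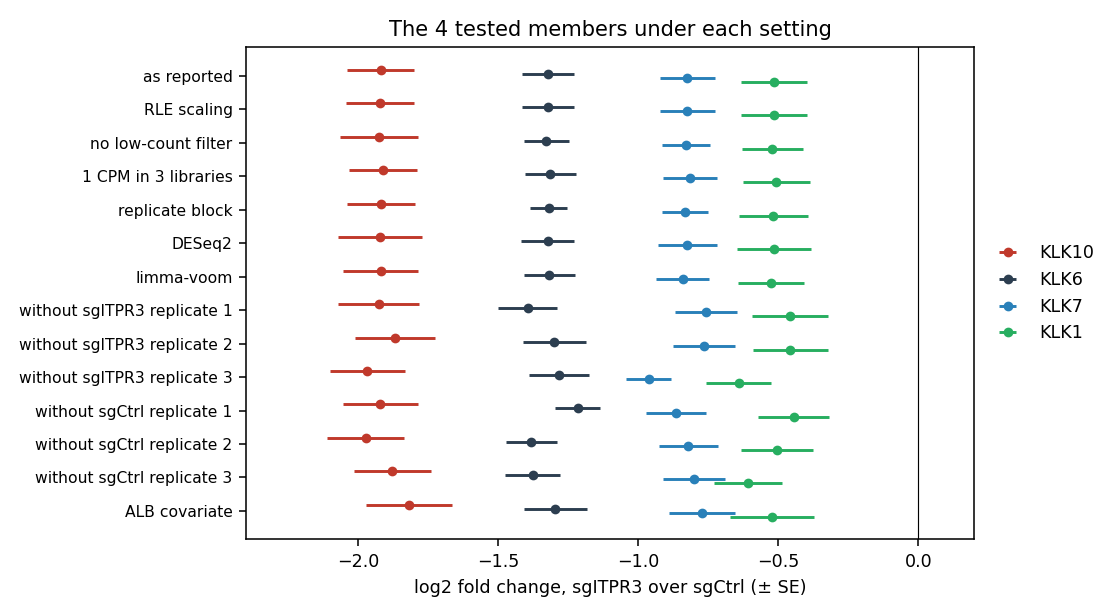
Log2 fold change of sgITPR3 over sgCtrl with its SE (horizontal axis) for KLK10, KLK6, KLK7 and KLK1 as reported and under 13 alternative settings (rows). All points lie below 0, those of KLK10 from -1.97 to -1.82, of KLK6 from -1.39 to -1.22, of KLK7 from -0.96 to -0.76 and of KLK1 from -0.64 to -0.45.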

How the data were processed

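The values analysed are gene counts as deposited by the authors, not normalized. The submitters' processing notes name STAR 2.6.0a (an aligner), featureCounts 1.6.3 (a read counter), DESeq2 and the build GRCh38, without their settings. The sources used here do not give the strand setting, annotation release or handling of mouse or multiply aligned reads. Symbols were matched for 58472 of 58884 identifiers, and positions for 58611 (GENCODE release 29).

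From these counts, edgeR 4.0.16 (R 4.3.3) compared sgITPR3 with sgCtrl by the quasi-likelihood F test, with TMM scaling (factors 0.961 to 1.03) and filterByExpr at a minimum count of 10, which kept 15804 genes holding 99.8% to 99.9% of each library. Benjamini-Hochberg adjustment covered every gene tested, with a threshold of 0.05. The SE is the absolute log2 fold change over the square root of F, and CPM is counts over the scaled library size (log2 CPM for likeness with a prior count of 2). The biological coefficient of variation was 9.53%, and replicate pairs differed by more than sampling noise (chi-square per degree of freedom 5.93 to 11.6). The procedure was tested on simulated data. Intervals and floors of 3 counts cover counting error only.

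Members and lists were chosen with earlier results of these data known. A gene taken off the inhibitor list afterwards, for a reason other than its values, is not reported here, and the counts of that list are those of the remaining 18 genes. Named were all 10 members, ITPR3, up to 4 passing genes of each list by p (or 2 by level), up to 6 passing neighbours and the nearest tested on each side, and the 3 genes most like the most abundant member. Genes at or near 0 counts, KLK4, KLKP1, F2R, CD3D, HBA1, VIL1, CDX2, KRT8, KRT18, KRT19 and EPCAM were named after their values were seen. Alternatives were RLE scaling, a block on replicate number, no low-count filter, a filter at 1 CPM in 3 libraries, DESeq2 1.42.0, limma-voom (limma 3.58.1), leaving out each library and, added later, ALB as a covariate.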

Additional observations from a re-analysis of the deposited data

How the results depend on the processing

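The 4 members stayed lower and past the threshold under all 13 alternatives, with the largest adjusted p at 0.0359 (KLK1 without sgITPR3 replicate 2). Over all genes, leaving out 1 library gave 1135 to 2121 genes called higher and 1196 to 2140 called lower, against 1835 and 1882, with the fewest without sgITPR3 replicate 2. The numbers were 1000 and 982 when the model held the ALB level as a covariate. That setting also left 0 of the other kallikreins higher (KLK3, edgeR adjusted p = 0.0591), 1 of the other serine proteases higher, and 0 higher and 1 lower of the neighbours, with C19orf48P, MYBPC2 and JOSD2 no longer called (edgeR adjusted p = 0.0771, 0.101 and 0.161). With no filter on low counts 1 receptor gene was called higher, F2RL3 (7, 9 and 5 counts in sgITPR3, 0 in each sgCtrl library). Leaving out 1 library gave 0 to 1 of the other kallikreins called higher, 2 to 4 of the inhibitors called higher (4 without sgCtrl replicate 2) and 1 to 2 of the neighbours called higher. TMEM277P, not called in any setting, had a log2 fold change of 0.13 under the ALB setting and of -0.31 to 0.012 when 1 library was left out (0.012 in the absence of sgITPR3 replicate 1), against -0.19 as reported. The causes were not tested. The labels state no pairing by replicate number. Deviations of same-numbered libraries correlated at -0.050, 0.013 and 0.098, and those of differently numbered libraries at -0.118 to 0.115. With 3 libraries a group these values cannot settle whether the libraries were paired. With the replicate block 1896 genes were called higher and 1981 lower, and the 4 members remained lower. At this depth nothing can be said of a change in KLK5, KLK8, KLK9 or KLK12. For KLK8 and KLK9 the overlap with the read-through gene AC011473.4 is a further limit.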

Other observations

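Single libraries stood at opposite ends of their group for KLK6 and KLK7. sgITPR3 replicate 3 had the lowest KLK6 level of its group (66.4 CPM) and the highest KLK7 level (49.95 CPM), and sgCtrl replicate 1 had the highest KLK6 level of its group (204 CPM) and the lowest KLK7 level (70.9 CPM). These are values of single libraries and were not tested, and 3 libraries a group cannot show whether these genes vary together.

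Genes of 2 membrane inhibitors and of an epithelial sodium channel subunit were also lower, all named after their values were seen. SPINT2, encoding a Kunitz inhibitor of membrane serine proteases, had 227, 242 and 174 CPM in sgITPR3, against 365, 312 and 269 CPM in sgCtrl (log2 fold change -0.56, edgeR adjusted p = 0.00367). SPINT1, encoding its relative, had 12.4, 9.51 and 8.30 CPM in sgITPR3, against 17.2, 12.6 and 14.6 CPM in sgCtrl (log2 fold change -0.55, edgeR adjusted p = 0.0204). Its call ended without sgITPR3 replicate 2 (edgeR adjusted p = 0.0789), without sgITPR3 replicate 3 (0.0848), without sgCtrl replicate 1 (0.0886) and with ALB as a covariate (0.147). SCNN1A, encoding a sodium channel subunit that serine proteases cut, had 1.34, 1.29 and 1.49 CPM in sgITPR3, against 3.23, 6.07 and 4.43 CPM in sgCtrl (log2 fold change -1.74, edgeR adjusted p = 3.18e-04). The groups did not overlap for any of the 3 or for ST14, and every sgITPR3 library lay below every sgCtrl library for 19.7% of all genes tested. ST14, which encodes matriptase, a target of both SPINT proteins, had 116 ± 15.1 CPM in sgITPR3 and 142 ± 18.8 CPM in sgCtrl (SD, n = 3 each) and did not pass (log2 fold change -0.29, edgeR adjusted p = 0.0515). It passed in 7 of 13 alternatives, among them the replicate block (edgeR adjusted p = 0.0125), DESeq2 (0.0251), limma-voom (0.0443) and ALB as a covariate (0.00142, log2 fold change -0.51), and its highest adjusted p was 0.206, without sgITPR3 replicate 3.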
